A study of Homo sapiens with 8 samples.

Results

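Oxidative phosphorylation subunits are the nuclear-encoded proteins that build the 4 respiratory complexes and the ATP synthase of the mitochondrial inner membrane. They were taken as all probe sets carrying exactly 1 gene symbol that was SDHA, SDHB, SDHC, SDHD or CYC1 or began with NDUFA, NDUFB, NDUFC, NDUFS, NDUFV, UQCR, COX4I, COX5, COX6, COX7, COX8 or ATP5, without the NDUFAF assembly factors and without pseudogenes. This gave 84 genes on 192 probe sets, of 18132 genes on 49293 probe sets in all. Complex I held 36 of the genes, complex II 3, complex III 9, complex IV 17 and complex V, the ATP synthase, 19. SDHB and UQCRFS1 were not analysed here. NDUFA4, which is listed under its newer symbol COXFA4 and so fell outside the rule, differed by 0.07 (log2) between USF1 knockdown and control (SE 0.03, limma adjusted p = 0.0640).

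RNA was measured on 8 one-colour arrays in the human cell line H1299, which derives from a non-small cell lung carcinoma. In the first set, 3 arrays of cells transfected with short hairpin RNA (shRNA) against the transcription factor USF1 were compared with 3 arrays of their own controls, which the labels call NC. In the second set, 1 array of cells given shRNA against the glucuronosyltransferase UGT1A3 was compared with 1 array of its own control. The labels do not say whether the replicates came from separate cultures, how many hairpins were used or what the NC cells received, so each p-value reflects the spread among these arrays alone, and that spread may be technical.

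Electrons from NADH enter the respiratory chain at complex I and those from succinate at complex II. Complexes III and IV pass them on to oxygen, and the proton gradient built on the way drives the ATP synthase. Mitochondrial DNA encodes the catalytic core of complex IV, cytochrome b of complex III, part of the ATP synthase and much of the membrane arm of complex I, while the subunits described here are made in the cytosol and imported. Their promoters are known for sites of the factor NRF1 and of ETS factors such as GABPA. USF1 belongs to the basic helix-loop-helix factors and binds the E-box.

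The median log2 intensity was 6.53 to 6.55 on the 6 arrays of the USF1 set and in the UGT1A3 set it was 5.59 for the control and 5.63 for the knockdown, so no level was compared across the sets. The number of arrays limits the precision. USF1 itself fell by 0.40 (SE 0.08, n = 3 against 3, limma adjusted p = 0.00818), from 6.31, 6.55 and 6.42 in the controls to 6.06, 5.88 and 6.13. These knockdown values lie close to the limit for testing, log2 5.63, so the depth of the knockdown is uncertain. In the UGT1A3 pair USF1 differed by 0.25. UGT1A3 had 9 probe sets, each shared with other genes and each too dim to be tested in both sets, so its knockdown could not be checked. Of 10 markers of lung epithelium and carcinoma, 6 were bright enough to be tested: KRT8, KRT18, VIM, NKX2-1, SFTPC and NAPSA. The keratin KRT18 and the mesenchymal filament VIM read 12.8 and 14.6 in the USF1 controls. EPCAM, CDH1, KRT19 and SFTPB were too dim to be tested. KRT8 rose by 0.25 (SE 0.04, limma adjusted p = 0.00197), and the other 5 tested did not pass. Of 6 fibroblast, 4 endothelial, 4 leukocyte and 6 muscle markers on the array, 1, 2, 1 and 2 were bright enough to be tested and did not pass. The leukocyte marker tested was CD68, with a control mean of 9.46. In a bulk measurement, fewer cells of a type and less RNA per cell cannot be told apart.

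Because USF1 binds the E-box CACGTG, the RefSeq promoters of the members (GRCh38.p14, 250 bases before to 50 after each start) were searched for it on both strands. Of the 84 members 68 were matched, with 81 promoter windows. The E-box was found in 7 of the 81 windows, or 8.64%, against 8.34% of 22198 windows of protein-coding genes. Those of 6 genes, in which the E-box lay before the start, are shown 5′ to 3′ on the gene's own strand to let the letters be read beside the measurements, with the E-box in capitals. ATP5ME (chr4:674406-674465, minus strand), ATP5PB (chr1:111449214-111449273, plus strand), NDUFA7 (chr19:8321463-8321522, minus strand), NDUFA11 (chr19:5903890-5903949, minus strand), NDUFS7 (chr19:1383693-1383752, plus strand) and UQCR11 (chr19:1605617-1605676, minus strand) read as follows.
ATP5ME: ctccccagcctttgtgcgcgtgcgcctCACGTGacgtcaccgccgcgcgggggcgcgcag
ATP5PB: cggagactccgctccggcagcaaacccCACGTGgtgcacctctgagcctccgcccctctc
NDUFA7: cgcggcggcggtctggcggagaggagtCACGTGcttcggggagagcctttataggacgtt
NDUFA11: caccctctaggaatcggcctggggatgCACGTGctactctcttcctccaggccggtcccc
NDUFS7: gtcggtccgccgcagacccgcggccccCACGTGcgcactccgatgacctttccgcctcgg
UQCR11: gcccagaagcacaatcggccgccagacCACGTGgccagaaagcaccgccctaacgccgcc

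The 7 genes with an E-box, these 6 and ATP5MC1, were all tested, and 0 passed after USF1 knockdown (limma, adjusted p under 0.05), with 1 at an unadjusted p under 0.05, where 40.7% of all 11448 genes tested passed. Their differences ran from -0.08 for ATP5ME, the e subunit of the ATP synthase membrane part, to 0.08 for NDUFA11, an accessory membrane subunit of complex I. These values are from the brightest probe set of each gene. A second, dimmer probe set of NDUFA11 rose by 0.21 (limma adjusted p = 0.0223 with each probe set tested alone). ATP5PB, of the peripheral stalk, differed by -0.03. The complex I core subunit NDUFS7, which carries an iron-sulfur cluster, differed by 0.01, the accessory subunit NDUFA7 by 0.02, and UQCR11, a small subunit of complex III, by 0.05. Among the other 59 tested members with a promoter window, 13 rose and 6 fell, and the difference between these groups was not tested. CYC1 and ATP5F1B, which fell, and ATP5MC3, which rose, had no matched window and were not searched. A match is a description of the letters and not a binding site.

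After USF1 knockdown, 79 of the 84 members were bright enough to be tested, and 14 rose, 8 fell and 57 did not pass. The share that passed was 27.8%, against 40.7% of all 11448 genes tested. By direction, 17.7% rose and 10.1% fell, against 22.0% and 18.7% of all genes. The median difference was 0.02 over the members and 0.01 over all genes, and the median size of a difference was 0.058 and 0.104. A difference of less than 0.1 in size was measured for 60 of the 79. A difference of at least 0.32 in size with an adjusted p under 0.05 was measured for 1 member, NDUFS6, and for 9.36% of all genes. The knockdown and control arrays did not overlap for 50 of 79 members, or 63.3%, against 53.6% of all genes, with the knockdown higher for 34 members (29.0% of all genes) and lower for 16 (24.6% of all genes). Separation held for all 22 members that passed and for 28 of the 57 that did not.

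**Figure D1:**
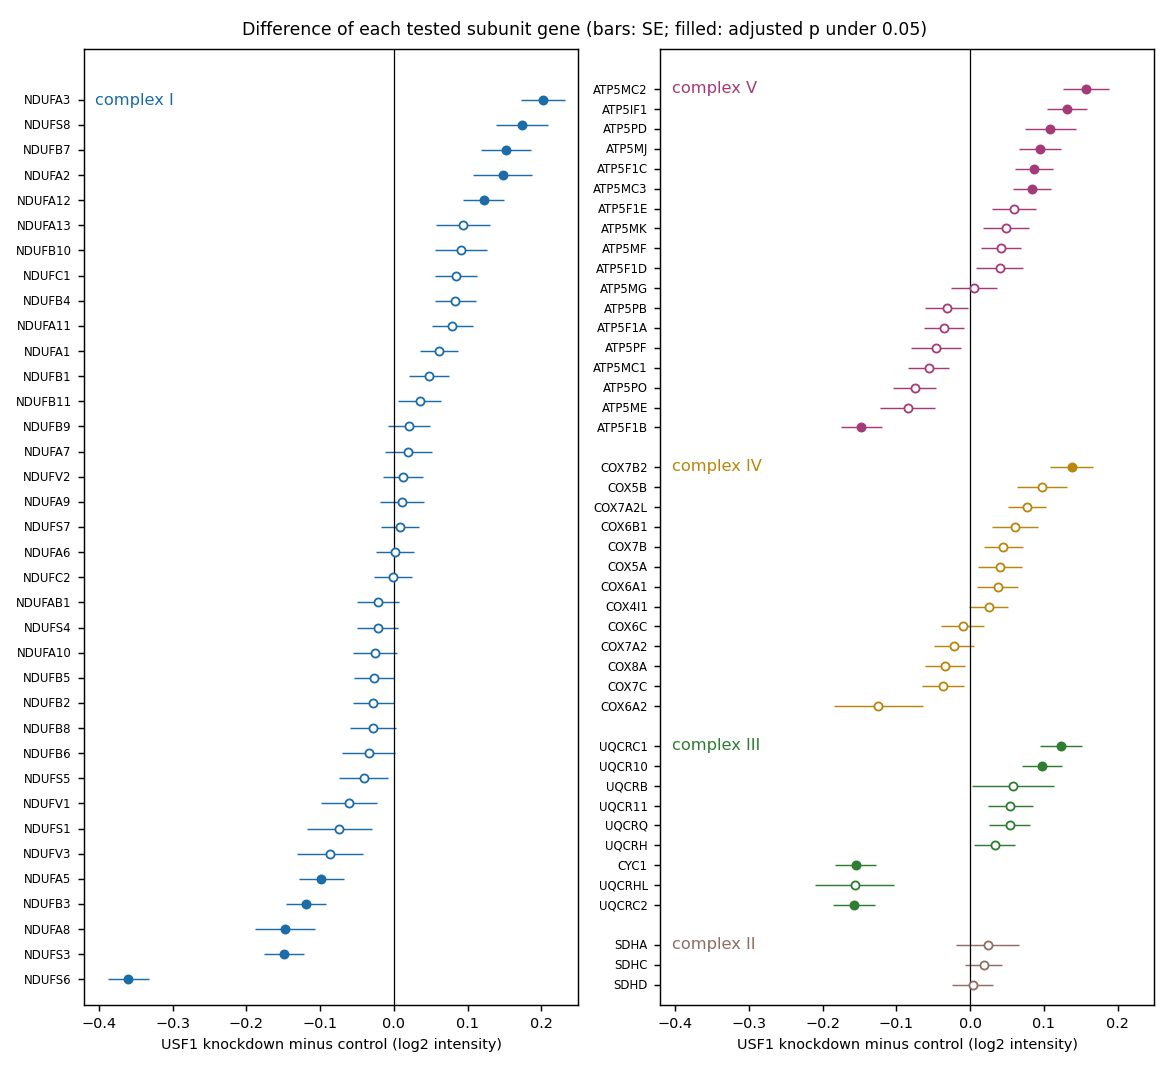
Difference between USF1 knockdown and control (log2 intensity, mean of 3 arrays minus mean of 3 arrays, horizontal axis) for each of the 79 tested subunit genes, by complex, with bars of 1 SE and filled points at a limma adjusted p under 0.05. All points but NDUFS6, at -0.36, lie between -0.16 and 0.20.

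The subunit genes were bright, with a median level of log2 12.2 against 8.77 over all tested genes, and their median within-group SD was 0.02 against 0.05. Among the 1516 genes with a mean level of log2 11 or more, 43.7% passed and the median size was 0.082, whereas 21 of the 69 members that bright passed, or 30.4%. The count of members that rose was lower when single arrays were left out. It was 7 without control 1, 8 without control 3, 8 without knockdown 1 and 9 without knockdown 2. Without control 1 the count that fell was 5. The share of all genes that passed dropped too, from 40.7% to 31.8%, 31.9%, 33.7% and 37.8% in the same order. The member shares were 15.2%, 17.7%, 20.3% and 20.3%. When eBayes was given an intensity trend and a robust prior, 37 members passed, or 46.8%, against 46.9% of all genes, so the lower share among members was not present under that setting. The median over members of an array's value minus the control mean was -0.01, 0.003 and 0.004 on the controls and 0.02, 0.01 and 0.02 on the knockdown arrays.

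**Figure D2:**
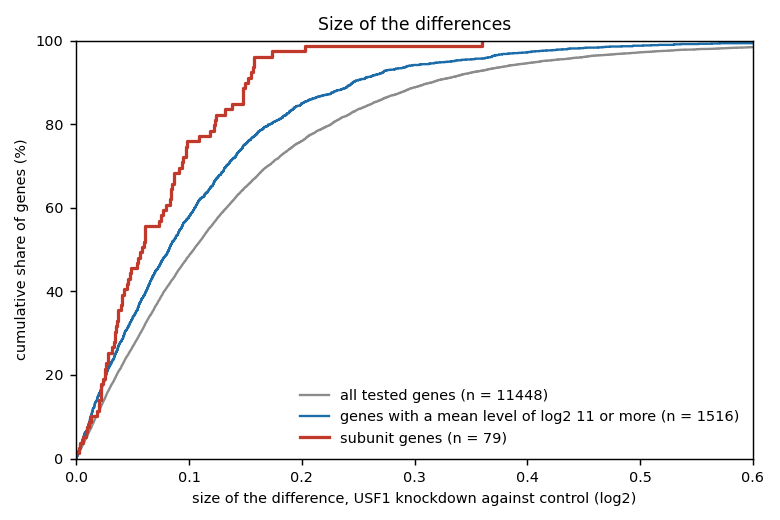
Cumulative share of genes (percent, vertical axis) by the size of the difference between USF1 knockdown and control (log2, horizontal axis) for all 11448 tested genes, the 1516 genes with a mean level of log2 11 or more, and the 79 subunit genes. The curve of the subunit genes lies to the left, with 60 of 79 under 0.1.

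Complex I had 36 tested genes, of which 5 rose and 5 fell, or 13.9% each, against 22.0% and 18.7% of all genes. Its median difference was 0.005. Its core subunits carry the flavin and iron-sulfur clusters, and its accessory subunits surround them and stabilise the complex. Of 6 core subunits NDUFS8 rose and NDUFS3 fell, and their median was -0.03. Of 30 accessory subunits 4 rose and 4 fell, with a median of 0.01.

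NDUFS6, a zinc-binding accessory subunit of the NADH-oxidising module, had the largest difference of the 79 tested members. It read 11.53, 11.53 and 11.49 in the controls and 11.18, 11.16 and 11.14 after USF1 knockdown. All 3 knockdown arrays lay well below all 3 controls. NDUFS6 fell by 0.36 (SE 0.03, n = 3 against 3), with a limma adjusted p of 0.000206, and its level was 77.9% of that in the controls. It was measured by 1 probe set, and the fall passed under each of the 15 alternative settings.

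The largest rise was that of NDUFA3, a small membrane-spanning accessory subunit. Its values were 11.59, 11.62 and 11.64 in the controls and 11.85, 11.80 and 11.81 after knockdown, without overlap. It rose by 0.20 (SE 0.03, limma adjusted p = 0.00215), and 3 of its 4 bright probe sets also passed when each probe set was tested alone, dim ones included, with adjustment over all 49293. The 150 bases before the start of each of these genes are shown because they had the largest fall and the largest rise, for NDUFS6 at chr5:1801257-1801406 and for NDUFA3 at chr19:54102705-54102854, both on the plus strand of GRCh38.p14 from RefSeq. Capitals mark the core of the NRF1 recognition sequence, read as GCGCA, any base and GCGC and searched on both strands. The stretch of NDUFS6 held no exact match to this motif, the E-box or the ETS motif CCGGAAG. It does hold a near match that differs from the NRF1 core in its last base only and is not marked.
NDUFS6: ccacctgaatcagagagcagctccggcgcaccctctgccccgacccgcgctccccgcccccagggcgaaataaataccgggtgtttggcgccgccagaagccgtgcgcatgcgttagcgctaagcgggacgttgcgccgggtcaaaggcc
NDUFA3: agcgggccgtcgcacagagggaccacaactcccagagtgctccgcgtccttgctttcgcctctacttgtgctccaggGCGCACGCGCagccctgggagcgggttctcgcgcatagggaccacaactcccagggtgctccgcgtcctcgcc

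NDUFS3, a core subunit of the ubiquinone-binding module, read 11.57, 11.59 and 11.57 in the controls and 11.45, 11.44 and 11.40 after knockdown. It fell by 0.15 (SE 0.03, limma adjusted p = 0.00529), and the groups did not overlap. NDUFS8, another core subunit, which carries iron-sulfur clusters, moved the other way, from 11.31, 11.28 and 11.34 to 11.50, 11.51 and 11.43. Its rise was 0.17 (SE 0.03, limma adjusted p = 0.00813), again without overlap. NDUFB7, an accessory subunit on the intermembrane space side, rose by 0.15 (SE 0.03, limma adjusted p = 0.0114), from 10.919, 11.005 and 10.968 to 11.148, 11.096 and 11.104. The lowest knockdown array of NDUFB7 lay above the highest control.

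The other complex I genes that passed were smaller in effect or less stable. NDUFA12, whose place during assembly is held by the factor NDUFAF2, rose by 0.12 and NDUFA2 by 0.15. The membrane-arm subunit NDUFB3 read 12.87, 12.82 and 12.84 in the controls and 12.74, 12.71 and 12.72 after knockdown, without overlap, and fell by 0.12. NDUFA8, of the intermembrane space side, fell by 0.15 and NDUFA5 by 0.10. The limma adjusted p-values of these 5 genes ran from 0.0133 to 0.0386. NDUFB4, NDUFC1 and NDUFA11 lay just outside the threshold, with differences of 0.08 each and adjusted p-values of 0.0520, 0.0544 and 0.0614. On a second, dimmer probe set NDUFA11 rose by 0.21 (limma adjusted p = 0.0223 with each probe set tested alone). NDUFB1, also of the membrane arm, read 12.82, 12.83 and 12.83 against 12.85, 12.86 and 12.90, without overlap but with a difference of 0.05 that did not pass (adjusted p = 0.212). NDUFV1, the core subunit that binds NADH and flavin, differed by -0.06, the large iron-sulfur subunit NDUFS1 by -0.07 and NDUFV2 by 0.01, and none of these passed. NDUFAB1, the mitochondrial acyl carrier protein that is also a complex I subunit, differed by -0.02.

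Complex II, succinate dehydrogenase, links the tricarboxylic acid cycle to the chain. None of its 3 measured genes passed (limma, 0 at an unadjusted p under 0.05), where 40.7% of all genes tested passed. The flavoprotein SDHA read 10.44, 10.54 and 10.49 in the controls and 10.56, 10.53 and 10.45 after knockdown, a difference of 0.02 (SE 0.04, limma adjusted p = 0.699). When its 3 probe sets were averaged the difference was 0.10 and passed (adjusted p = 0.0259, with 0.0259 to 0.999 over the alternatives), but that average includes a probe set under the dim limit (control mean 4.66, difference 0.23), and the 2 bright ones gave 0.02 and 0.05. The membrane anchor SDHC read 11.08, 11.07 and 11.08 against 11.09, 11.10 and 11.09, a difference of 0.02 (SE 0.03), and SDHD differed by 0.004 (SE 0.03). The groups of SDHA overlapped, while those of SDHC stood apart by a margin smaller than the SE of the difference.

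In complex III 2 of 9 genes rose and 2 fell, or 22.2% each, against 22.0% and 18.7% of all genes, with a median of 0.05. The structural core proteins UQCRC1 and UQCRC2 went in opposite directions. UQCRC2 fell by 0.16 (SE 0.03, limma adjusted p = 0.00489), from 11.67, 11.71 and 11.66 to 11.53, 11.53 and 11.51. UQCRC1 rose by 0.12 (SE 0.03, limma adjusted p = 0.0131), from 12.51, 12.52 and 12.47 to 12.65, 12.61 and 12.61. In both genes the knockdown arrays lay on one side of the controls.

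CYC1, the haem-carrying cytochrome that hands electrons to cytochrome c, fell by 0.16 (SE 0.03, limma adjusted p = 0.00501). It read 12.50, 12.52 and 12.52 in the controls and 12.39, 12.36 and 12.33 after knockdown, without overlap. Each of its 3 probe sets fell when tested alone, by 0.21, 0.16 and 0.16. UQCR10, a small subunit, rose by 0.10 (SE 0.03, limma adjusted p = 0.0253), from 12.74, 12.78 and 12.77 to 12.87, 12.85 and 12.86. UQCRB, known as the ubiquinone-binding protein, read 10.42, 10.36 and 10.36 against 10.46, 10.32 and 10.53, with overlap and a difference of 0.06. UQCRH, the hinge protein beside CYC1, differed by 0.03 on its brightest probe set and rose by 0.22 on a dimmer one (limma adjusted p = 0.0176 with each probe set tested alone). UQCRHL, a gene copy nearly identical to UQCRH, read 11.40, 11.32 and 11.37 against 11.09, 11.25 and 11.27, a difference of -0.16 (SE 0.05, limma adjusted p = 0.0566) that is uncertain because probes may take up RNA of both.

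Complex IV, cytochrome c oxidase, had 13 tested genes with a median difference of 0.04. COX7B2 was the member that passed, or 7.69%, against 40.7% of all genes tested. COX7B2 is a paralog of COX7B, and it read 9.43, 9.47 and 9.49 in the controls and 9.61, 9.60 and 9.59 after knockdown. It rose by 0.14 (SE 0.03, limma adjusted p = 0.00997), with every knockdown array above every control. COX7B, the widely expressed form, differed by 0.05. COX7A2L, which joins complexes III and IV into supercomplexes, lay just outside the threshold, reading 11.33 on each control and 11.40, 11.42 and 11.39 after knockdown, a difference of 0.08 (SE 0.03, limma adjusted p = 0.0524). COX5B, a zinc-binding subunit, differed by 0.10 (adjusted p = 0.0568).

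The regulatory subunit COX4I1 gave differences of 0.03 and 0.04 on its brightest probe sets and fell by 0.26 on a dimmer one (limma adjusted p = 0.0342 with each probe set tested alone). On the brightest, COX4I1 read 12.89, 12.89 and 12.92 in the controls and 12.92, 12.92 and 12.93 after knockdown. The remaining widely expressed subunits COX5A, COX6A1, COX6B1, COX6C, COX7A2, COX7C and COX8A differed by -0.04 to 0.06. Paralogs known from particular tissues were dim: COX4I2, COX6B2, COX7A1 and COX8C were under the limit for testing, and COX6A2, known from muscle and heart, had a control mean of 6.27 and a difference of -0.12 (SE 0.06, limma adjusted p = 0.147). A testis-known paralog that was not dim was COX7B2.

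In complex V, the ATP synthase, 6 of 18 tested genes rose and 1 fell, with a median of 0.04. These shares were 33.3% and 5.56%, against 22.0% and 18.7% of all genes, and the difference was not tested. Of the genes that rose, ATP5F1C, ATP5MC3, ATP5MJ and ATP5PD were each lost under 9 or 10 of the 15 alternative settings. The gene that fell was ATP5F1B, the catalytic beta subunit, by 0.15 (SE 0.03, limma adjusted p = 0.00612). It read 13.64, 13.66 and 13.60 in the controls and 13.47, 13.49 and 13.50 after knockdown, without overlap, and both of its probe sets fell when tested alone. ATP5F1A, the alpha subunit that alternates with beta in the catalytic head, differed by -0.04 (SE 0.03, limma adjusted p = 0.336).

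The proton-carrying c ring is encoded by 3 genes with different import sequences, ATP5MC1, ATP5MC2 and ATP5MC3. ATP5MC2 rose by 0.16 (SE 0.03, limma adjusted p = 0.00706), from 12.14, 12.19 and 12.19 to 12.37, 12.31 and 12.31. ATP5MC3 rose by 0.08 (adjusted p = 0.0387). ATP5MC1 read 11.04, 11.03 and 11.05 against 10.98, 11.01 and 10.96, without overlap, a difference of -0.06 (SE 0.03, limma adjusted p = 0.145). ATP5IF1, the inhibitor that keeps the enzyme from hydrolysing ATP, rose by 0.13 (SE 0.03, limma adjusted p = 0.00815), from 12.28, 12.26 and 12.27 to 12.39, 12.42 and 12.39. All 4 of its bright probe sets gave a positive difference, of 0.08 to 0.14, but none of the 4 passed when tested alone (adjusted p = 0.0534 to 0.387).

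ATP5F1C, the gamma subunit of the rotating stalk, rose by 0.09 (SE 0.03, limma adjusted p = 0.0329) on its brightest probe set, from 11.19, 11.20 and 11.21 to 11.29, 11.29 and 11.28. Its other bright probe sets gave -0.35 and -0.16, so its direction depended on the probe set, and when its probe sets were averaged the difference was -0.14 (adjusted p = 0.111, with 0.00491 to 0.111 over the alternatives). ATP5MJ, a small membrane subunit, rose by 0.09 (SE 0.03, limma adjusted p = 0.0372), from 13.14, 13.11 and 13.16 to 13.24, 13.24 and 13.21, while the dimmest of its 5 bright probe sets gave -0.20. ATP5PD, of the peripheral stalk, rose by 0.11 (adjusted p = 0.0443). The other stalk genes ATP5PB, ATP5PF and ATP5PO differed by -0.03, -0.05 and -0.07 and did not pass.

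**Figure D3:**
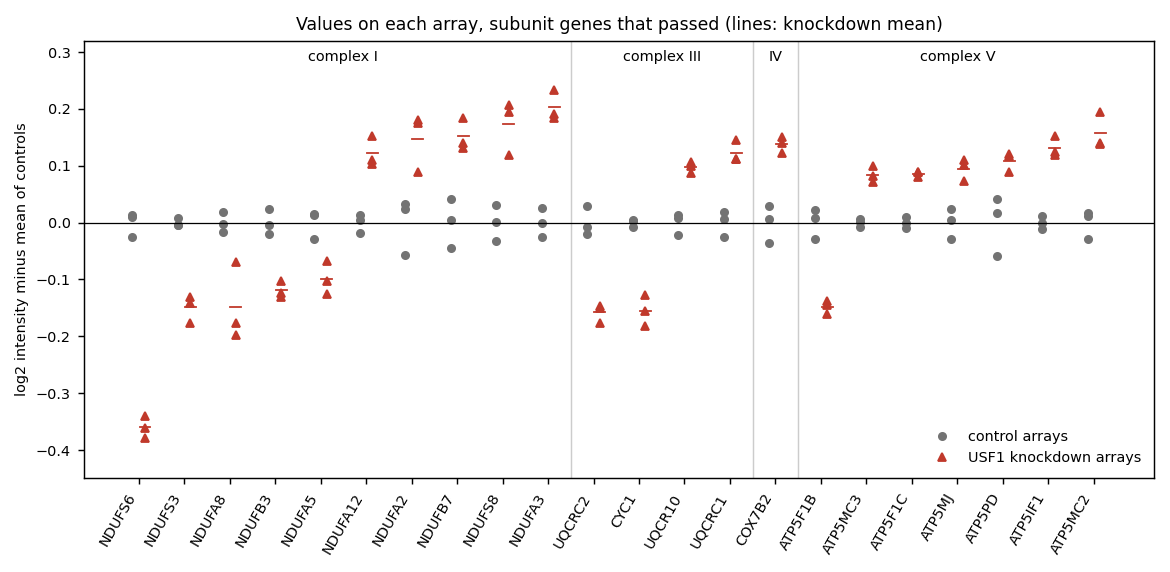
Log2 intensity of each array minus the mean of the 3 controls (vertical axis) for the 22 subunit genes that passed after USF1 knockdown, with grey circles for control arrays, red triangles for knockdown arrays and lines at the knockdown mean. In each gene the 3 knockdown arrays lie on one side of the 3 controls, and NDUFS6 lies lowest, 0.36 under its controls.

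Of the 22 members that passed, 10 passed under each of the 15 alternative settings: NDUFS6, NDUFA3, NDUFS8, NDUFB7, UQCRC2, CYC1, COX7B2, ATP5F1B, ATP5IF1 and ATP5MC2. The test of each probe set alone, with dim ones included and adjustment over all 49293, was not among these settings, and 3 of the 10 did not pass it: NDUFB7 (adjusted p = 0.0534), COX7B2 (0.0554) and ATP5IF1 (0.0534 on its brightest probe set). A further 4, NDUFA12, NDUFB3, NDUFS3 and UQCRC1, were lost under 1 or 2 settings, which for NDUFA12 and NDUFB3 included leaving out control 1 (adjusted p = 0.0532 and 0.0519) and for UQCRC1 was leaving out control 3 (adjusted p = 0.0521). The other 8 were lost under 6 or more, namely NDUFA2, NDUFA5, NDUFA8, UQCR10, ATP5F1C, ATP5MC3, ATP5MJ and ATP5PD, and each of these was lost when control 1 was left out. With each of the 165 bright member probe sets tested alone, 8 rose and 9 fell, or 10.3%, against 25.1% of bright probe sets of all genes. Of 46 members with at least 2 bright probe sets, 31 had differences of 1 sign and 36 had a range under 0.1. Shares over all genes were not computed for these counts. Probe sets of a gene are not always independent: a pair of NDUFB4 and a pair of SDHD had identical values on every array.

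Further promoter motifs were searched in the 81 member windows, on both strands, which again left out CYC1, ATP5F1B and ATP5MC3. The NRF1 core was in 16 windows, or 19.8%, against 7.38% of protein-coding windows. Of the 15 tested genes with it 6 rose, namely NDUFA3, NDUFA12, UQCR10, UQCRC1, ATP5F1C and ATP5MJ, and NDUFA8 fell, with a median difference of 0.08. UQCR10, ATP5F1C, ATP5MJ and NDUFA8 were lost under 7, 10, 9 and 7 of the alternative settings. NDUFA12 and UQCRC1 were lost under 1 each and NDUFA3 under none. The direction of ATP5F1C depended on the probe set. Of the 51 tested genes without it 7 rose and 5 fell, with a median of 0.01, and the difference between these groups was not tested. The ETS motif CCGGAAG was in 21 windows, or 25.9%, against 12.8%, and of the 20 tested genes with it 2 rose and 1 fell, with a median of 0.04. Of the 46 without it 11 rose and 5 fell, with a median of 0.02, and this difference was not tested either. Over all genes tested 40.7% passed. The level of the factor NRF1 differed by 0.02 after USF1 knockdown (limma adjusted p = 0.791), while GABPA, which binds the ETS motif, fell by 0.18 (adjusted p = 0.0108).

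Genes that build, regulate or feed the complexes are given as counts beside the background of 22.0% that rose and 18.7% that fell. Of 16 complex I assembly factors 3 rose and 2 fell, with NDUFAF4 at -0.27, TMEM186 at -0.22 and NDUFAF3 at 0.21, and a median of 0.005. Of 31 assembly factors of complexes II to V 5 rose and 12 fell, with a median of -0.04. Among these, COA3 and SURF1, both needed for complex IV, fell by 0.37 and rose by 0.34 respectively, and the ATP synthase factor ATPAF1 rose by 0.35. Their limma adjusted p-values were 0.000321, 0.000263 and 0.000510.

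Of 15 genes of mitochondrial DNA maintenance and transcription 7 fell and 8 did not pass, with a median of -0.09. TWNK, the mitochondrial replicative helicase, fell by 0.76 (SE 0.04, limma adjusted p = 6.67e-05), from 8.96, 9.06 and 9.07 to 8.28, 8.31 and 8.22. The transcription factor TFB2M fell by 0.29 and the single-stranded DNA-binding protein SSBP1 by 0.24, while TFAM, which packages mitochondrial DNA, differed by 0.04 (adjusted p = 0.55). The mitochondrially encoded complex I subunits ND1 and ND4 differed by 0.06 (adjusted p = 0.0925) and 0.004 (adjusted p = 0.925).

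Of 74 genes of the mitochondrial ribosome 9 rose and 22 fell, with MRPL54 at 0.45, MRPL3 at -0.28 and MRPS27 at -0.21, and a median of -0.04. Of 23 import genes 4 rose and 7 fell, with TOMM40L at 0.43, TOMM70 at -0.28 and TIMM8B at 0.24. Of 16 genes of the tricarboxylic acid cycle and pyruvate dehydrogenase 4 rose and 3 fell. The pyruvate dehydrogenase subunits PDHB and PDHA1 moved in opposite directions, by 0.34 and -0.19, and IDH3G rose by 0.29. Among 11 coenzyme Q genes 3 fell and 8 did not pass, with COQ8A at -0.35, PDSS2 at -0.16 and PDSS1 at -0.15. Of 10 mobile carriers and nucleotide exchangers ETFA rose by 0.19 and SLC25A4 fell by 0.15. Of 10 tested regulators of respiratory genes, the coactivator PPRC1 fell by 0.21, GABPA fell by 0.18 and PPARA rose by 0.14.

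In the UGT1A3 pair 80 members were bright enough to be compared, and each group had 1 array, so no difference in this pair has a replicate check or a p-value. The knockdown array was higher for 55 of the 80, or 68.8%, against 52.1% of 11620 genes, and lower for 25. The median difference was 0.05 over the members and 0.02 over all genes, and the median size was 0.114 and 0.159. The knockdown array was higher by at least 0.32 for 0 members and 11.1% of all genes, and lower by at least that much for 1 member, ATP5MC1, and 8.02% of all genes. Unlike in the USF1 set, these sizes were not set beside those of genes of similar brightness. With each array centred on its median, 47 of 80 members and 48.1% of all genes were higher, with medians of 0.02 and -0.01.

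By complex, the knockdown array was higher for 27 of 36 genes of complex I, 1 of 3 of complex II, 6 of 9 of complex III, 10 of 14 of complex IV and 11 of 18 of complex V. Over all genes the share was 52.1%. Within complex I the knockdown array was higher for 25 of 30 accessory subunits, with a median of 0.10, and for 2 of 6 core subunits, with a median of -0.04. These counts rest on 1 array a group and were not repeated with the arrays centred, and no difference between the groups of genes was tested. The largest complex I differences were those of the membrane-arm subunits NDUFB3, from 11.68 to 11.98 (0.30), and NDUFB1, from 12.01 to 12.28 (0.27). NDUFV3, an accessory subunit of the NADH-oxidising module, went from 9.005 to 8.759 (-0.25) on its brightest probe set. Its other bright probe sets gave 0.17 and 0, so its direction depended on the probe set.

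In complex II the anchor SDHC went from 10.61 to 10.81 (0.20) and SDHA from 9.36 to 9.32 (-0.04). In complex III UQCRHL went from 9.88 to 10.12 (0.25) and UQCRB from 9.31 to 9.54 (0.23). The largest differences of complex IV were in COX7B2, from 8.94 to 9.18 (0.24), and COX7A2L, from 10.73 to 10.94 (0.21). In complex V the c-ring gene ATP5MC1 had the largest difference of the 80 members, from 10.45 to 10.08 (-0.37), while ATP5IF1 went from 11.31 to 11.55 (0.25). The other c-ring genes ATP5MC2 and ATP5MC3 differed by 0.12 and -0.08, both smaller than the median size of 0.159 over all genes. With 1 array a group the direction of these differences could not be tested.

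The knockdowns had different controls, and 79 members were measured in both sets. Both differences were positive for 34 members and negative for 12. A positive difference after USF1 knockdown came with a negative one in the UGT1A3 pair for 13, and the reverse held for 20. Across these members Pearson's r was 0.19 and Spearman's rho 0.21, against 0.17 and 0.18 across 11130 genes, as a description over genes that share arrays and are not independent replicates. Of the 14 members that rose after USF1 knockdown, 10 were higher in the UGT1A3 knockdown array, and of the 8 that fell, 3 were lower and 5 higher. In that array 68.8% of members and 52.1% of all genes were higher, whatever their direction after USF1 knockdown. NDUFA3 (0.20 and 0.18), COX7B2 (0.14 and 0.24) and ATP5IF1 (0.13 and 0.25) were positive in both sets, and CYC1 (-0.16 and -0.15) and ATP5F1B (-0.15 and -0.16) were negative in both. The sets had opposite signs for NDUFB3 (-0.12 and 0.30), NDUFA8 (-0.15 and 0.18), NDUFA5 (-0.10 and 0.16) and UQCRC1 (0.12 and -0.11). NDUFS6, at -0.36 after USF1 knockdown, differed by 0.05 in the UGT1A3 pair, from 10.94 to 10.98.

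**Figure D4:**
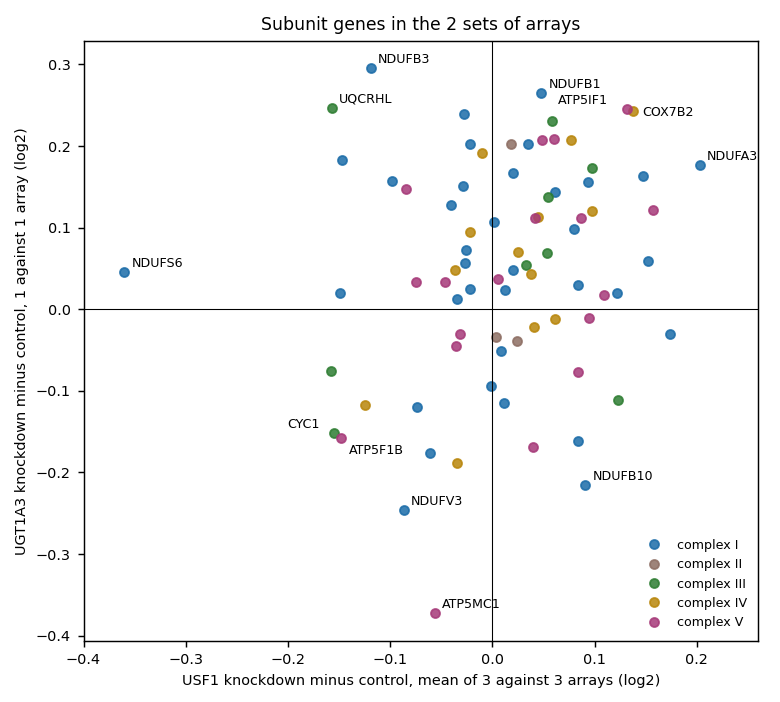
Difference after USF1 knockdown (log2, mean of 3 against 3 arrays, horizontal axis) and in the UGT1A3 pair (log2, 1 against 1 array, vertical axis) for the 79 subunit genes measured in both sets, coloured by complex. The upper right corner holds 34 genes and the lower left 12, NDUFS6 lies far left near 0 on the vertical axis, and ATP5MC1 lies lowest.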

How the data were processed

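RNA of 8 one-colour Affymetrix PrimeView arrays was analysed. The authors deposited a table of log2 intensities, a value for each probe set and array, whose log base was read from their range. The submitters' processing notes list MAS5 without role or version, and the scaling between arrays was not given in the sources used here. Probe sets were named from the platform annotation, and symbols were updated through a RefSeq gene table (GRCh38.p14). A gene was represented by its single-symbol probe set with the highest mean in the set of arrays concerned. Genes below a limit at the 40th percentile of all probe set means (log2 5.63 in the USF1 set, 4.76 in the UGT1A3 set) counted as dim and were not tested.

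The USF1 comparison was fitted on the whole table with limma 3.58.1 (lmFit, eBayes, R 4.3.3), two-sided, with Benjamini-Hochberg adjustment over 11448 genes and a threshold of 0.05. Differences (log2) are knockdown minus control, and SE is the moderated standard error. For the UGT1A3 pair differences only were computed. The fit was tested on simulated data. The members and lists were chosen with earlier results of these data known. Values on every array are given for up to 5 members per complex by smallest adjusted p, the 2 per complex with the largest UGT1A3 difference and members whose bright probe sets differ by over 0.3. Each list has up to 3 members named by smallest adjusted p, and other genes named there were chosen after their values were seen. The alternatives were quantile normalization, centring, other dim limits, 16 intensity units added before log2, other uses of probe sets, an intensity trend with a robust prior, a replicate block and leaving out each array.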

Additional observations from a re-analysis of the deposited data

How the results depend on the processing

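The number of arrays limits what could be detected, and p-values cover the spread between 3 arrays a group. The count of members that rose, 14, was 8 when dim probe sets were kept, 26 with an intensity trend and robust prior, and 7 to 12 when each array was left out in turn. The count that fell, 8, was 5 to 8 when each array was left out. With dim probe sets kept, 16.7% of members and 20.1% of all genes passed. Whether replicate numbers pair the samples could not be told from 3 arrays a group. Deviations of same-numbered arrays correlated at -0.10, 0.20 and 0.09, and those of differently numbered arrays at -0.27 to 0.19. With the replicate block 8 members rose and 7 fell, and 19.0% of members passed, against 37.0% of all genes. Over all genes, 2515 rose and 2142 fell, and these counts were 1953 to 2481 and 1656 to 2085 when each array was left out. When the probe sets of a gene were averaged, ATP5F1C was at -0.14 (adjusted p = 0.111) and NDUFA8 at 0.000815 (adjusted p = 0.992, with 0.000254 to 0.992 over the alternatives) where the main values had the opposite sign. The second NDUFA8 probe set lay under the dim limit (control mean 3.82, difference 0.15), beside -0.15 on the bright one. With this averaging the member median was 0.003. In the UGT1A3 pair the members higher by at least 0.32 numbered 1 with quantile normalization, 1 with dim genes kept and 2 over single probe sets, and the member median was 0.067, 0.0199 and 0.059 with quantile normalization, centring and single probe sets.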
